A study of Mus musculus with 18 samples.

Results

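Lcn2, Lrg1, Serpina3n, Cd14 and Scgb3a1 encode secreted or surface proteins, most of them known from inflammation, and their messenger RNA was followed in sorted endothelial cells of the mouse cortex after a stroke. The 5 genes were taken by symbol from a table of 21638 genes. They had been chosen by their deposited counts, as higher in occluded than in sham libraries on both sides of the brain, so the occluded-against-sham values below describe that choice and carry no test. All 5 passed the filter on low values, a count of 10 or more in 3 libraries or more. Serpina3n passed only through the high libraries, with such a count in 7 of 18, against 12 for Lrg1, 16 for Lcn2, 17 for Cd14 and 18 for Scgb3a1.

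The libraries came from adult mouse cortex, from cells sorted as CD31+, CD41- and CD45- on day 7. MCAO, occlusion of the middle cerebral artery, models ischaemic stroke by surgery, and its controls were sham mice. There were 6 groups with 3 libraries each: sham and MCAO, both labelled WT and both sampled on the side of the occlusion (ipsilateral) and on the opposite side (contralateral), and ipsilateral cells of MCAO mice labelled Hdac2 ECKO or Ezh2 ECKO. ECKO is a deletion in endothelial cells, made with floxed alleles and Cdh5CreERT2, a tamoxifen-dependent recombinase under the promoter of the endothelial cadherin gene Cdh5. Hdac2 is a histone deacetylase, and Ezh2 is the histone methyltransferase of Polycomb repressive complex 2. All groups, sham included, were labelled as given tamoxifen at 75 mg per kg, for which the design states 5 doses. The labels do not say whether the WT mice carried the recombinase, or whether libraries of both sides, or libraries with one replicate number, came from one mouse, so p-values measure the spread between libraries.

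The acute phase response is the systemic reaction to injury and infection, in which interleukin-6 type cytokines acting through STAT3, and interleukin-1 and TNF acting through NF-kB, raise secreted defence proteins together with C/EBP transcription factors. The liver is its best known site, and endothelial cells can make several of the same products. Lcn2 is lipocalin 2, which binds the iron carriers of bacteria. Lrg1 is a leucine-rich glycoprotein that binds the co-receptor endoglin and modifies TGF-beta signalling in vessels. Serpina3n is a secreted inhibitor of serine proteases, Cd14 is the co-receptor that hands lipopolysaccharide to Tlr4 and Ly96, and Scgb3a1 is a small secreted protein of the secretoglobin family, best known from airway epithelium.

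The stretch just upstream of the start site is where such factors could bind, and RefSeq (build GRCm38.p6) gave it for 4 of the 5 genes. Each sequence below runs 5' to 3' over 250 bases and ends at the base before the start site. The first pair is shown because each holds 1 match to a motif of the pathway, in capitals, and the 3 Serpina3 sequences because they share stretches, in capitals, among neighbouring genes described further on.
Lcn2 (GRCm38.p6 chr2:32387740-32387989, - strand): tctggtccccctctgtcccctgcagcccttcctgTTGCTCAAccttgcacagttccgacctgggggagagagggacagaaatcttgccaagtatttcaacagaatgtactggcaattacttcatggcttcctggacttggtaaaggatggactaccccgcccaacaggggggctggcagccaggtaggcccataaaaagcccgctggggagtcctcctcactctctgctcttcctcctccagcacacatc
Scgb3a1 (GRCm38.p6 chr11:49663345-49663594, + strand): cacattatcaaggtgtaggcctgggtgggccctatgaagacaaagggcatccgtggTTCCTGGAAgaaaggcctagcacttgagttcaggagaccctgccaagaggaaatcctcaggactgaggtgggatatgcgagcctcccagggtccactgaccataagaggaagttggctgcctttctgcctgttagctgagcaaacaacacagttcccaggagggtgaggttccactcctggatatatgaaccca
Serpina3n (GRCm38.p6 chr12:104406458-104406707, + strand): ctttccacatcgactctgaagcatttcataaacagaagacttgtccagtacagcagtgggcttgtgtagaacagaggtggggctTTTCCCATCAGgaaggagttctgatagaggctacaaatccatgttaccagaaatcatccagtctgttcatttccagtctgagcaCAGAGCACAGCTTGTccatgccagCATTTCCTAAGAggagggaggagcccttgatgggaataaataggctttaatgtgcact
Serpina3f (GRCm38.p6 chr12:104214294-104214543, + strand): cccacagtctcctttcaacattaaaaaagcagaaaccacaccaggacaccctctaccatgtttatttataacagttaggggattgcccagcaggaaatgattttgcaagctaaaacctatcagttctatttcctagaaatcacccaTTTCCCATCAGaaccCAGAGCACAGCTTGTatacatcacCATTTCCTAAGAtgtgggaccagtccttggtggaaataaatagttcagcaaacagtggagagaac
Serpina3i (GRCm38.p6 chr12:104262872-104263121, + strand): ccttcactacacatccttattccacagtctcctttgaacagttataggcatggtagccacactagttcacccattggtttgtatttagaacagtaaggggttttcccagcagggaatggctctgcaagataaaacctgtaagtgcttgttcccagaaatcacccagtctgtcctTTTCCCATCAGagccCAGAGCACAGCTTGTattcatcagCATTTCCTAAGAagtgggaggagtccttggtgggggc
Matches on both strands were sought to the C/EBP motif (TTGCNNAA), the STAT motif (TTCNNNGAA), the AP-1 motif (TGANTCA) and the NF-kB consensus. The Lcn2 stretch held 1 C/EBP match, TTGCTCAA, that began at -216 from the start site, and 9.56% of 32851 promoters of that length held such a match. The Scgb3a1 stretch held 1 STAT match, TTCCTGGAA, that began at -194, against 7.02% of promoters. The Lrg1 and Serpina3n stretches held none of these letters, and the AP-1 motif (6.75% of promoters) and the NF-kB consensus (7.25%) had no match in the 4 stretches. The matches did not overlap each other. The RefSeq starts of Lcn2 and Lrg1 lie inside the genes as GENCODE M21 draws them, which begin further upstream. Those of Serpina3n and Scgb3a1 lie upstream of the GENCODE genes. The capitals in the Serpina3 sequences mark CAGAGCACAGCTTGT, found in 5 of the 32851 promoters, CATTTCCTAAGA, found in 7, and TTTCCCATCAG, found in 8.

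Total counts ran from 25791401 to 57576255 per library. Levels are given as CPM, a gene's count scaled to a common library total, and a floor of 3 counts was worth between 0.0619 and 0.101 CPM. The libraries held endothelial markers (14 of 14 genes detected, with sums from 12538 to 28507 CPM). Sums were from 45.1 to 123 CPM for 10 astrocyte markers and from 4.86 to 23.0 CPM for 14 neutrophil markers. Endothelial sums were 15802 to 16676 CPM in ipsilateral sham and 20051 to 28507 CPM in MCAO ipsilateral libraries. They were 12538 to 15398 CPM in Ezh2 ECKO-labelled and 15893 to 18842 CPM in Hdac2 ECKO-labelled libraries. Contralaterally they were 15480 to 24973 CPM in sham and 14380 to 27204 CPM in MCAO. The 8 red cell markers summed to 71.7 to 671 CPM in Ezh2 ECKO-labelled libraries and 19236 to 297930 CPM in the others, above the endothelial sum there. MCAO contralateral replicate 1 and Ezh2 ECKO replicate 2 stood apart, with median correlations to the other libraries of 0.802 and 0.835, where the median over the 18 libraries was 0.925. Those libraries also held the most reads from odorant and vomeronasal receptor genes, 1883 and 2077 CPM against a median of 290 CPM. Neither targeted gene was called lower where its deletion was labelled. Hdac2 was at 57.6, 85.0 and 87.9 CPM in Hdac2 ECKO-labelled libraries and at 84.4, 68.2 and 96.1 CPM in MCAO ipsilateral libraries (log2 fold change -0.11 ± 0.32 SE, edgeR adjusted p = 0.925). Ezh2 was at 12.0, 19.7 and 8.41 CPM in Ezh2 ECKO-labelled libraries and at 4.44, 7.02 and 7.84 CPM in MCAO ipsilateral libraries (1.05 ± 0.86, adjusted p = 0.485). Counts over whole genes do not resolve the exons between loxP sites, so both groups are named here by their labels.

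Lcn2 (chr2:32384633-32388252, minus strand) had its highest levels in the MCAO libraries of both sides. In sham cells it was at 1.36, 3.34 and 2.78 CPM ipsilaterally and at 2.76, 4.57 and 4.63 CPM contralaterally. In MCAO cells it was at 58.2, 61.3 and 32.0 CPM ipsilaterally and at 50.7, 37.9 and 71.4 CPM contralaterally. Every MCAO library was thus above every sham library, and the sides interleaved. Hdac2 ECKO-labelled libraries lay between, at 13.8, 23.8 and 8.52 CPM. Those labelled Ezh2 ECKO were at 2.32, 0 and 0.0559 CPM, which were 86, 0 and 2 counts, so a single library held nearly all of that group's reads and the others were at or under the floor.

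Lrg1 (chr17:56119678-56122001, minus strand) was close to the floor in most sham libraries, at 0.412, 0.143 and 0 CPM ipsilaterally and 0.153, 0.0672 and 1.06 CPM contralaterally. Ipsilateral MCAO cells had 54.2, 104 and 21.5 CPM. Contralateral MCAO cells had 0, 24.2 and 44.1 CPM, and the library at 0 was replicate 1, which stood apart from the rest over all genes. The ipsilateral groups did not overlap and the contralateral groups did. Replicates labelled Hdac2 ECKO were close together, at 7.67, 8.00 and 8.82 CPM, while those labelled Ezh2 ECKO were at 7.44, 0 and 0.447 CPM. The group order by mean was MCAO ipsilateral, MCAO contralateral, Hdac2 ECKO, Ezh2 ECKO, sham contralateral and sham ipsilateral, and of these neighbours only the groups labelled as Hdac2 and Ezh2 deletions did not overlap.

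Serpina3n (chr12:104406729-104414329, plus strand) was the scarcest of the 5 per length, with 1.00 CPM per kilobase in ipsilateral MCAO cells. Sham libraries held 2, 2 and 2 counts ipsilaterally and 0, 4 and 2 contralaterally, where both mates of a read pair were counted, so that 2 counts are 1 pair. Ipsilateral MCAO libraries held 95, 159 and 22 counts (2.17, 3.51 and 0.526 CPM) and contralateral ones 102, 42 and 51 counts (3.20, 0.915 and 1.09 CPM). No MCAO library overlapped a sham library. The libraries labelled Hdac2 ECKO held 2, 23 and 6 counts and those labelled Ezh2 ECKO 2, 2 and 3, the latter within the range of sham.

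Cd14 (chr18:36725067-36726798, minus strand) had its widest spread in CPM among the contralateral MCAO replicates (SD 24.3 CPM). On a log scale the libraries labelled Ezh2 ECKO were spread more widely. Sham cells were at 2.80, 3.10 and 0.963 CPM ipsilaterally and 2.35, 2.29 and 1.06 CPM contralaterally. MCAO cells were at 14.5, 4.90 and 19.7 CPM ipsilaterally and 8.02, 9.30 and 50.8 CPM contralaterally, so each side's MCAO libraries lay above its sham libraries, narrowly for ipsilateral replicate 2. The libraries labelled Hdac2 ECKO were at 3.77, 15.3 and 16.5 CPM and those labelled Ezh2 ECKO at 4.42, 0.114 and 5.53 CPM. Each pair of neighbours in the order of the 6 group means overlapped.

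Scgb3a1 (chr11:49663610-49665118, plus strand) was by far the most abundant per length, with a mean of 1162 CPM per kilobase in ipsilateral MCAO cells, where Lrg1 had 42.5, Lcn2 19.3 and Cd14 7.53. It was expressed in sham cells too, at 23.6, 24.5 and 32.4 CPM ipsilaterally and 31.4, 39.2 and 39.7 CPM contralaterally. Ipsilateral MCAO cells had 757, 469 and 859 CPM and contralateral ones 67.3, 123 and 106 CPM. Scgb3a1 alone separated the sides after occlusion, with every ipsilateral library above every contralateral one. Replicates labelled Hdac2 ECKO were spread widely, at 948, 74.6 and 163 CPM, and those labelled Ezh2 ECKO were at 242, 8.84 and 160 CPM, with the low value in replicate 2, the library that stood apart.

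**Figure D1:**
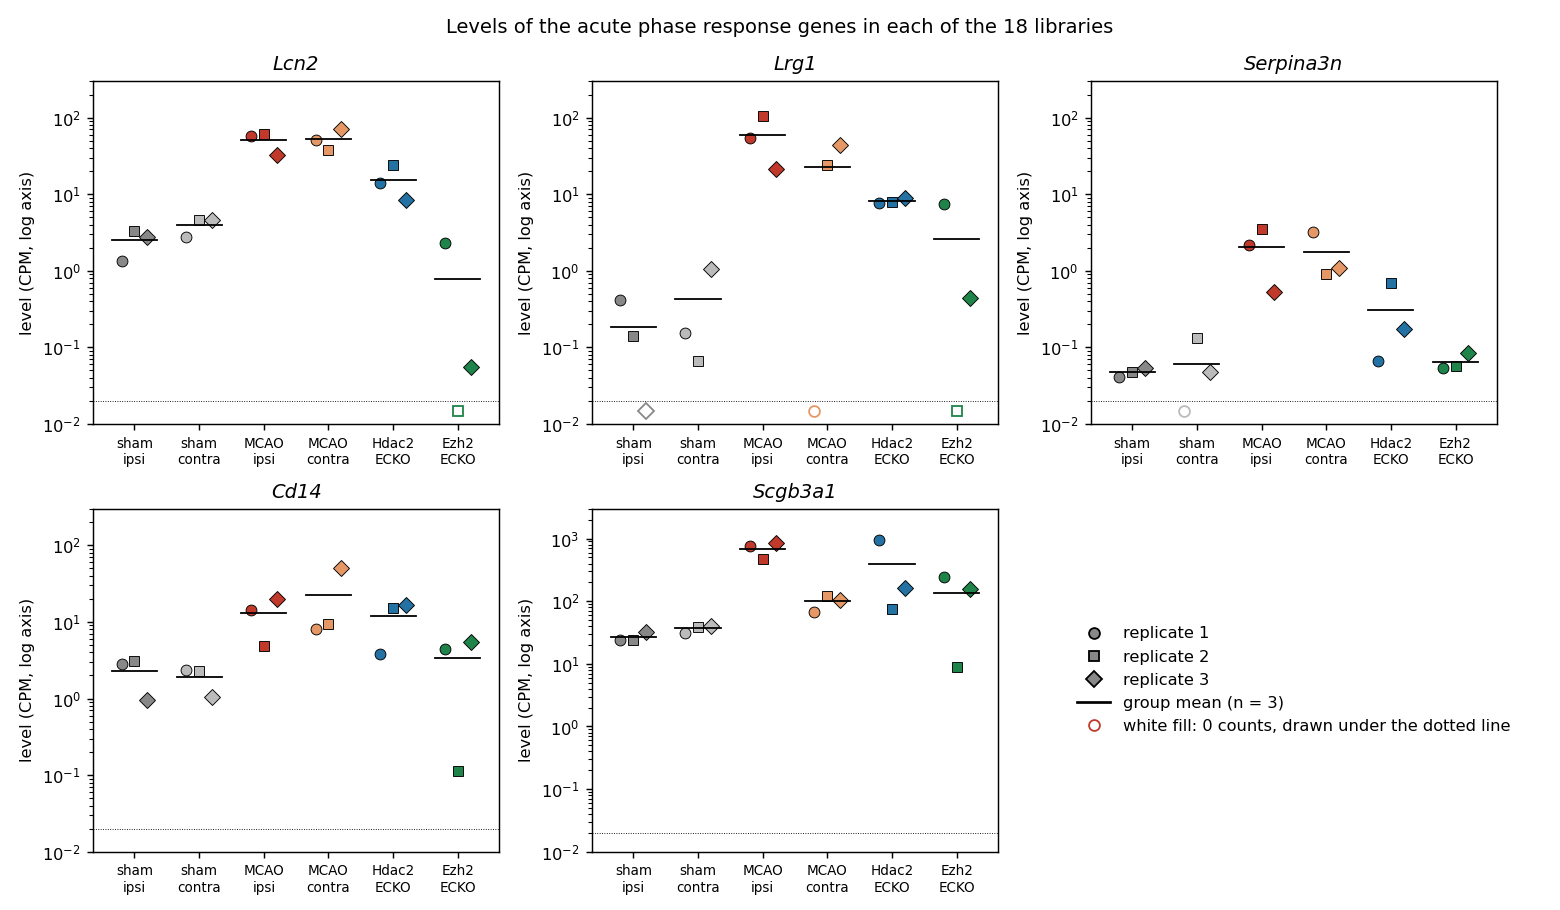
Level of each gene in CPM (log axis) in the 6 groups, with 1 point per library (circle, square and diamond for replicates 1, 2 and 3), a line at the group mean and libraries with 0 counts drawn as white markers under the dotted line. The MCAO libraries of Lcn2 lie between 32.0 and 71.4 CPM on both sides, while those of Scgb3a1 lie between 469 and 859 CPM ipsilaterally and between 67.3 and 123 CPM contralaterally.

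The size of the MCAO difference that chose the genes is given here as a description. Ipsilaterally the fitted log2 fold changes against sham were 4.34 ± 1.00 (SE) for Lcn2, 8.27 ± 1.99 for Lrg1, 5.36 ± 1.45 for Serpina3n, 2.51 ± 0.99 for Cd14 and 4.70 ± 0.88 for Scgb3a1. All 5 were above sham with no overlap, as were 13.3% of the 17094 genes tested. Contralaterally they were 3.74 ± 0.97 for Lcn2, 5.71 ± 1.77 for Lrg1, 4.80 ± 1.43 for Serpina3n, 3.58 ± 1.04 for Cd14 and 1.43 ± 0.77 for Scgb3a1, and 4 of the 5 did not overlap, with a background of 3.64%. The fitted values of Lrg1 and Serpina3n rest on sham libraries at or near the floor, so they move with the few counts there. Single libraries moved several of these values. Contralaterally Cd14 was 2.19 without MCAO contralateral replicate 3, the library at 50.8 CPM. Lrg1 ran from 4.80 without that library to 7.65 without sham contralateral replicate 3, and Serpina3n reached 5.98 without sham contralateral replicate 2. Ipsilaterally Lrg1 reached 9.63 without sham replicate 1. In bulk samples such as these, fewer cells making a transcript and less of it per cell cannot be told apart.

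Between the sides of the occluded brain, which the choice did not use, none of the 5 genes passed the test. Scgb3a1 was 7.02 times higher ipsilaterally in mean fit (log2 fold change 2.81 ± 0.81, edgeR adjusted p = 1). It was the 1 of 5 whose groups did not overlap, where 5.36% of all genes did not. The other log2 differences, ipsilateral minus contralateral, were -0.08 ± 0.87 for Lcn2, 1.39 ± 1.45 for Lrg1, 0.25 ± 1.19 for Serpina3n and -0.80 ± 0.94 for Cd14, each smaller than its error. By edgeR 0 of 5 were called, with 1 at an unadjusted p under 0.05, and DESeq2 and voom also called 0. Over all genes 0 of 17094 were called (0%) and 526 were under 0.05 unadjusted. In sham brain the side difference of Scgb3a1 was -0.45 ± 0.76 and each of the 5 genes overlapped between sides, where 15.4% of genes did not, and 0 were called by edgeR, DESeq2 or voom, with 0 under 0.05 unadjusted. The test of whether the side difference itself differed between MCAO and sham gave 3.27 ± 1.09 for Scgb3a1 (edgeR adjusted p = 0.941). It called 0 of the 5 genes and 0% of all genes, and DESeq2 and voom called 0 of the 5. Unadjusted, 1 of the 5 was under 0.05, as were 578 of 17094 genes. With only these 4 groups in the fit the adjusted p for Scgb3a1 was 0.0412.

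The libraries labelled Ezh2 ECKO had lower mean levels of all 5 genes than WT MCAO ipsilateral libraries, and 1 of them, Lcn2, passed the test. Those WT libraries are among the ones in which the genes were chosen as high, which by itself favours a lower value in any other group. Lcn2 fell by 5.99 on the log2 scale (SE 1.09, edgeR adjusted p = 0.0208), a 63.3-fold lower mean, and was the 1 of 5 genes called, against 1.46% of all genes called and 1.23% called lower. The other log2 fold changes were -4.50 ± 1.65 for Lrg1 (adjusted p = 0.144), -4.93 ± 1.43 for Serpina3n (0.0741), -1.96 ± 0.97 for Cd14 (0.272) and -2.35 ± 0.79 for Scgb3a1 (0.119). Serpina3n passed the filter only through the high libraries. It held 2, 2 and 3 counts in the libraries labelled Ezh2 ECKO, at or under the floor. Its fold, its p and its lack of overlap here therefore carry no weight as a test. The groups did not overlap for 4 of the 5, Cd14 being the exception, where 15.3% of all genes were lower with no overlap. The Lcn2 call was lost without MCAO ipsilateral replicate 1 (adjusted p = 0.0632), without replicate 2 (0.114) and without Ezh2 ECKO replicate 3 (0.0828). Without MCAO contralateral replicate 1, 3 of the 5 genes were called, where 1362 of 16326 genes were called over the whole table. The Lcn2 call was also lost with replicate number as a block in the fit. Ezh2 ECKO replicate 1 held 86 of the 88 Lcn2 counts of its group, and without it the others, at 0 and 2 counts, give no fold. Replicate 2, which stood apart from the rest, had the lowest value of its group for Lcn2, Lrg1, Cd14 and Scgb3a1. Its receptor reads were at 2077 CPM, against 154 to 296 CPM in MCAO ipsilateral libraries. Without that library Lcn2 was -5.44 (adjusted p = 0.0379), and with the receptor reads as a covariate it was -5.73 (adjusted p = 0.0372), while the genes called over the whole table went from 250 to 24 and to 13. The part of these reads in the other 4 values was not tested. Globin transcripts made up between 0.00932% and 0.0653% of counts in the libraries labelled Ezh2 ECKO and between 3.78% and 5.78% in MCAO ipsilateral libraries, and the part of that difference in these values was not tested. Leaving the globin genes out before scaling kept Lcn2 as the 1 gene called. Of 14 endothelial markers in this comparison, 7 were higher and 7 lower, and edgeR called 1, Ly6c1, as lower. Of those markers 9 were under 0.05 unadjusted, where 3287 of 17094 genes were. The part of endothelial content in the values of the 5 genes was not tested.

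Against the same WT libraries, none of the 5 genes passed the test in the libraries labelled Hdac2 ECKO. Lcn2 was -1.71 ± 0.90 on the log2 scale (edgeR adjusted p = 0.546), Lrg1 -2.87 ± 1.53 (0.553) and Serpina3n -2.72 ± 1.27 (0.504). Cd14, at -0.14 ± 0.94, and Scgb3a1, at -0.81 ± 0.76, overlapped with MCAO ipsilateral libraries. By edgeR 0 of 5 were called (background 0.0117%), and DESeq2 and voom called 0. Unadjusted, 1 was under 0.05, as were 1683 of 17094 genes. It was Serpina3n, which passed the filter only through the high libraries. Lcn2 and Lrg1 lay below without overlap, as did 10.3% of genes. Globin transcripts were 5.41% to 19.9% of counts in libraries labelled Hdac2 ECKO and 3.78% to 5.78% in MCAO ipsilateral libraries. The part of that difference in these values was not tested. Against ipsilateral sham, whose libraries had been chosen as low, the 5 genes lay above without overlap in the libraries labelled Hdac2 ECKO, as 6.97% of genes did, with log2 values from 2.37 for Cd14 to 5.40 for Lrg1 and the lowest adjusted p, 0.151, for Scgb3a1 (3.88 ± 0.85). Without Hdac2 ECKO replicate 1, the library at 948 CPM, Scgb3a1 was 2.10 against sham and -2.60 against MCAO ipsilateral. Without replicate 2, which held 23 of the group's 31 Serpina3n counts, Serpina3n was 1.25 and -4.13. Of the 5 genes against sham edgeR called 0 (0% of all genes). Unadjusted, 4 were under 0.05, as were 1221 of 17094 genes. DESeq2 called 1 (Scgb3a1), with 246 of 13704 genes called. Voom called 3 (Lcn2, Lrg1 and Scgb3a1), with 266 of 17094 genes called.

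The libraries labelled Ezh2 ECKO against ipsilateral sham gave -1.65 ± 0.92 for Lcn2 (edgeR adjusted p = 0.833), 3.77 ± 1.66 for Lrg1 (0.731), 0.55 ± 0.95 for Cd14 and 2.35 ± 0.79 for Scgb3a1 (0.54), and these groups overlapped for each of the 4. Serpina3n was at 7 counts against 6 over the 3 libraries, at or under the floor in both groups, so no fold is given although its CPM values did not overlap (1 of 5, where 13.7% of genes did not). EdgeR called 0 of 5 where it called 0.041% of all genes. Unadjusted, 2 were under 0.05, as were 1115 of 17094 genes, and DESeq2 and voom called 0. Without Ezh2 ECKO replicate 1, Lcn2 was called lower than in sham (adjusted p = 0.00348), with no fold given because the other libraries held 0 and 2 counts. The Lrg1 value rests on that same library, which held 276 of the group's 292 counts, and was 0.23 without it. Leaving that library out also took Lrg1 to -8.04 against MCAO ipsilateral libraries (adjusted p = 0.0595).

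A direct comparison of the deletion groups used no library on which the genes were chosen. All 5 fitted values were higher in the libraries labelled Hdac2 ECKO than in those labelled Ezh2 ECKO, and none passed the test in edgeR. Lcn2 had the largest difference, 4.27 ± 1.01 on the log2 scale or 19.3-fold (adjusted p = 0.0964), with each of 3 libraries above each of 3. The others were 1.63 ± 1.47 for Lrg1, 2.21 ± 1.30 for Serpina3n, 1.82 ± 0.97 for Cd14 and 1.53 ± 0.77 for Scgb3a1, with adjusted p-values from 0.47 to 0.739. Only Lcn2 and Lrg1 did not overlap (2 of 5, with 6.87% of all genes higher without overlap), and 0.123% of all genes were called. The gap was narrow for Lrg1, whose lowest library labelled Hdac2 ECKO was at 7.67 CPM and whose highest labelled Ezh2 ECKO was at 7.44 CPM. Serpina3n counted 15 pairs against 3, a ratio of 5.54 with an exact 95% interval from 1.57 to 29.9 that covers counting error only. Of the 5 genes 1 had an unadjusted p under 0.05, as had 1916 of 17094 genes. DESeq2 called 1, with 659 of 13052 genes called, and voom 0, with 4 of 17094 called. Lcn2 was called without MCAO contralateral replicate 1 (adjusted p = 0.0409), where 191 of 16326 genes were called. Lcn2 was also called without Ezh2 ECKO replicate 1 (adjusted p = 4.34e-05, with 0 and 2 counts in the rest of that group), where 73 of 17059 were. Without Hdac2 ECKO replicate 1 the Scgb3a1 difference was -0.26. Globin transcripts were 5.41% to 19.9% of counts in Hdac2 ECKO-labelled libraries and 0.00932% to 0.0653% in those labelled Ezh2 ECKO, and 6 of 8 red cell genes were called higher, with a median log2 difference of 8.24. With the globin genes left out before scaling, Lcn2 was 4.23 (adjusted p = 0.115) and the genes called over the whole table went from 21 to 3. The part of red cell transcripts in the values of the 5 genes was not tested.

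**Figure D2:**
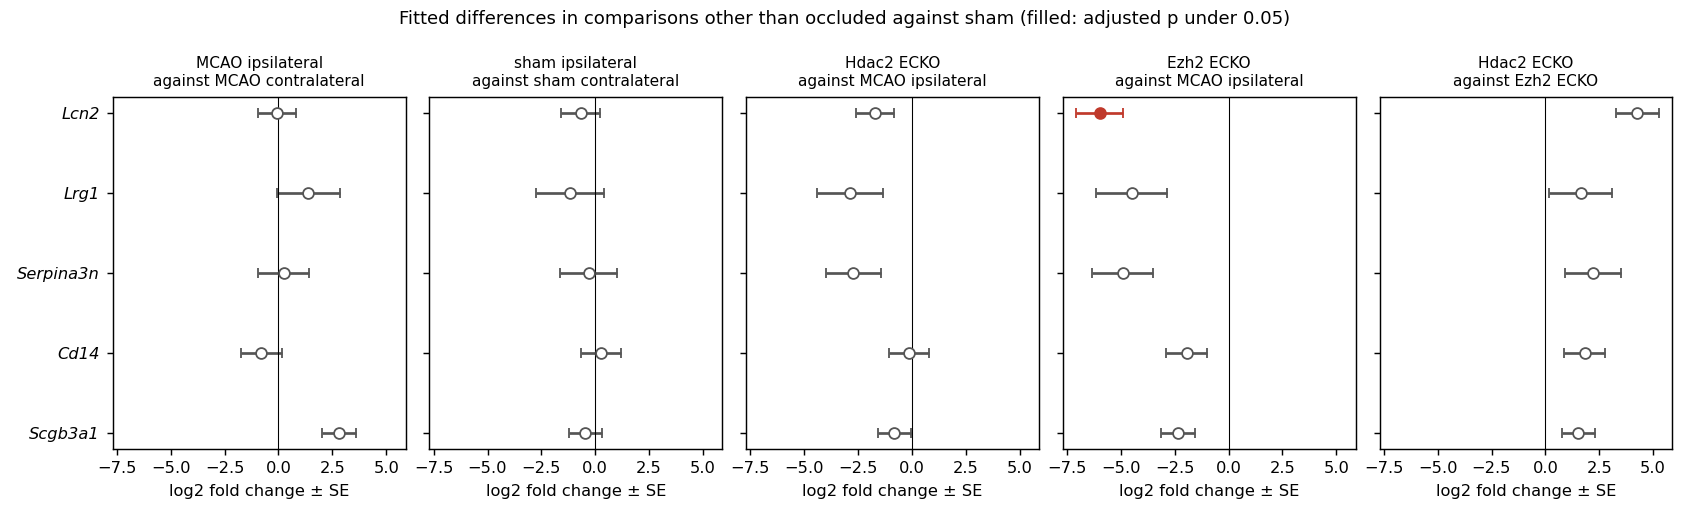
Log2 fold change with its SE for the 5 genes in the comparisons of sides and of the groups labelled as deletions, with a filled red point where the edgeR adjusted p was under 0.05. The only filled point is Lcn2 in Ezh2 ECKO against MCAO ipsilateral, at -5.99, and the Scgb3a1 point between MCAO sides lies at 2.81.

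Serpina3n lies on chromosome 12 in a cluster of related protease inhibitor genes, and its 3 tested neighbours also averaged more in MCAO than in sham libraries. Serpina3f held 214, 270 and 64 counts in MCAO ipsilateral libraries and 8, 30 and 80 in contralateral ones, against 0 to 6 in the sham libraries. Serpina3i held 449, 724 and 4 counts ipsilaterally and 50, 76 and 2 contralaterally, against 0 to 7 in sham. MCAO replicate 3 was therefore near the floor for Serpina3i on both sides, where Serpina3f and Serpina3g were not. Serpina3g was detected throughout, at 0.619 to 3.76 CPM in sham, 4.60, 10.5 and 7.51 CPM in MCAO ipsilateral and 1.50, 3.94 and 18.0 CPM in MCAO contralateral libraries.

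Over both sides the log2 fold changes of MCAO against sham were 4.97 ± 1.10 for Serpina3f (edgeR adjusted p = 0.0678), 2.33 ± 0.67 for Serpina3g (0.19) and 5.86 ± 1.29 for Serpina3i (0.0678). In the libraries labelled Ezh2 ECKO they were -5.41 ± 1.56, -3.54 ± 1.00 and -7.01 ± 1.91 against MCAO ipsilateral, with adjusted p-values of 0.0738, 0.0661 and 0.0594. None of the 3 neighbours was called in either comparison. The libraries labelled Hdac2 ECKO were above those labelled Ezh2 ECKO without overlap for all 3, with differences of 2.32 ± 1.39, 3.14 ± 0.98 and 4.69 ± 1.74 and adjusted p-values of 0.575, 0.225 and 0.305, where 6.87% of all genes were higher without overlap. The gap was narrow in counts for Serpina3f, whose lowest library labelled Hdac2 ECKO held 6 counts and whose highest labelled Ezh2 ECKO held 6, and for Serpina3i, with 4 against 3. Of 17 genes in the list of the cluster and its protease targets, 16 were in the table and 5 passed the filter. Over both sides edgeR called 0 of these 5, where 0.152% of all genes were called. Unadjusted, 5 were under 0.05, as were 1554 of 17094 genes. Serpina3f and Serpina3i passed the filter through the libraries in which they were high, so the genes that passed do not stand for the list.

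The 4 Serpina3 genes share sequence, which bears on how reads are assigned. Of 75-base windows of the annotated transcript, 1.46% were also found in another gene for Serpina3n, 5.61% for Serpina3f, 8.91% for Serpina3g and 6.87% for Serpina3i, against 0% for Lcn2, Lrg1, Cd14 and Scgb3a1. Levels within the cluster are uncertain to that extent. The sequences shown above place the shared CAGAGCACAGCTTGT at -82 in Serpina3n, -89 in Serpina3f and -61 in Serpina3i. Shared stretches were sought among those promoters only, and the 250-base stretch of Serpina3g held none of the ones in capitals above. Serpina3f also held the STAT match TTCCTAGAA at -121 and 2 C/EBP matches read on the other strand, TTTTGCAA at -150 and TTCAGCAA at -22. Serpina3i held the STAT match TTCCCAGAA at -102 and the NF-kB consensus match GGGGTTTTCC at -154. Serpina3g held the STAT match TTCCCAGAA at -33 and the NF-kB consensus match GGGGGTTTCC at -85, while Serpina3n held none.

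**Figure D3:**
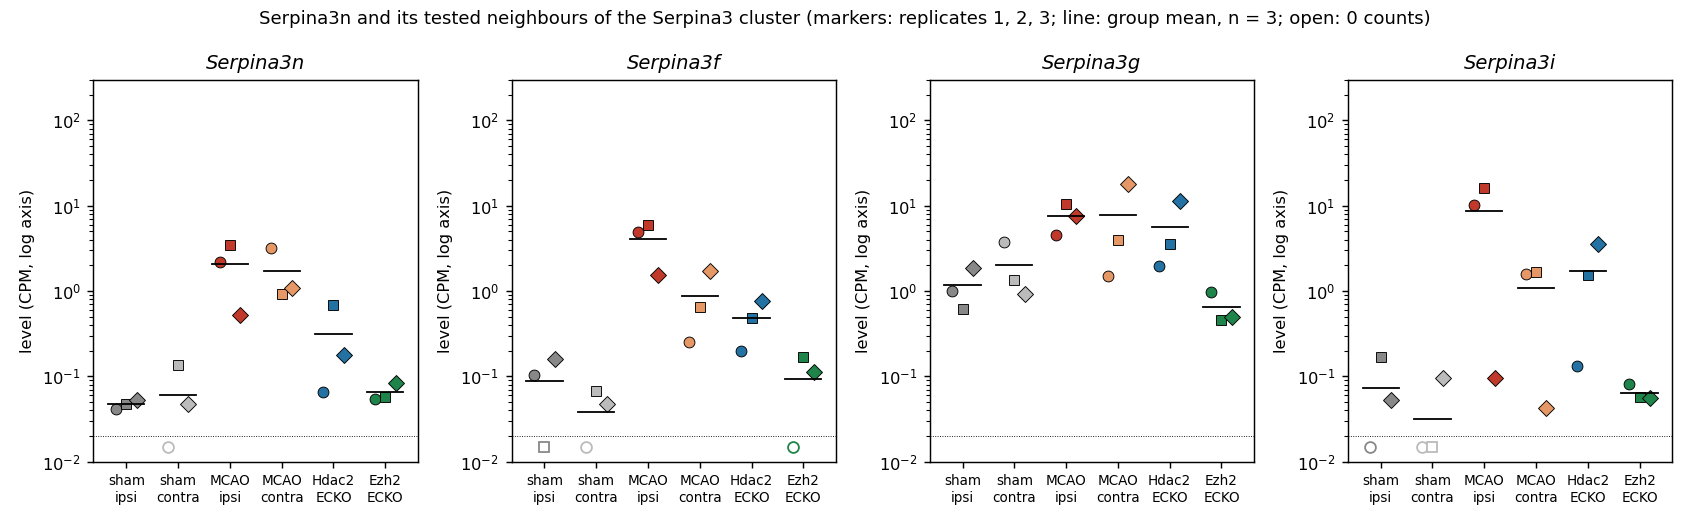
Level in CPM (log axis) of Serpina3n, Serpina3f, Serpina3g and Serpina3i by group, with 1 point per library, a line at the group mean and white markers for 0 counts. MCAO ipsilateral libraries reach 3.51 CPM for Serpina3n and 16.0 CPM for Serpina3i, whose replicate 3 is at 0.0957 CPM.

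The cytokine signals and transcription factors that drive an acute phase response were mostly higher after MCAO over both sides, and 1 of them passed the test. Of 23 genes, all tested, 18 were higher (78.3%), as were 54.2% of all genes, and the median log2 change was 0.64 beside 0.06 over all genes. The 1 called stands beside 0.152% of all genes. Cebpd, a C/EBP factor induced in the acute phase, rose by 1.52 ± 0.29 (edgeR adjusted p = 0.0314), from 20.7 to 38.5 CPM in the sham libraries to 44.6 to 108 CPM in the MCAO libraries. All 6 MCAO libraries lay above all 6 sham libraries, as for 0.421% of genes. This call was lost without the filter on low counts (adjusted p = 0.0545) and was kept in 8 of 18 fits that left out 1 library (adjusted p up to 0.171). Socs3, the feedback inhibitor of STAT3 signalling, was 1.32 ± 0.36 (adjusted p = 0.161), and Stat3 itself was 0.66 ± 0.23 (0.3) with no overlap. The receptors gave 0.87 ± 0.30 for Osmr (0.288), 1.02 ± 0.36 for Il1r1 (0.318) and -0.37 ± 0.21 for the shared receptor chain Il6st (0.651). Nfkbia, the NF-kB inhibitor that NF-kB itself induces, was 0.72 ± 0.29 (0.421) and Cebpb 1.02 ± 0.63 (0.684).

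In the libraries labelled Ezh2 ECKO against MCAO ipsilateral, Nfkbia fell by 1.68 (SE 0.42, edgeR adjusted p = 0.0479), from 990, 1230 and 544 CPM to 317, 283 and 261 CPM. It was the 1 of 23 driver genes called in that comparison, where 1.46% of all genes were. The driver list had a median of -0.28 beside 0.17 over all genes. The Nfkbia call was kept in 5 of 18 fits without 1 library (adjusted p up to 0.257). Cebpd was -1.36 ± 0.41 (0.0803), Stat3 -0.38 ± 0.32 (0.496) and Socs3 -0.40 ± 0.50 (0.652). Between the groups labelled as Hdac2 and Ezh2 deletions, Nfkbia differed by 1.48 ± 0.42 without overlap (0.163) and Cebpd by 0.37 ± 0.40 (0.785).

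**Figure D4:**
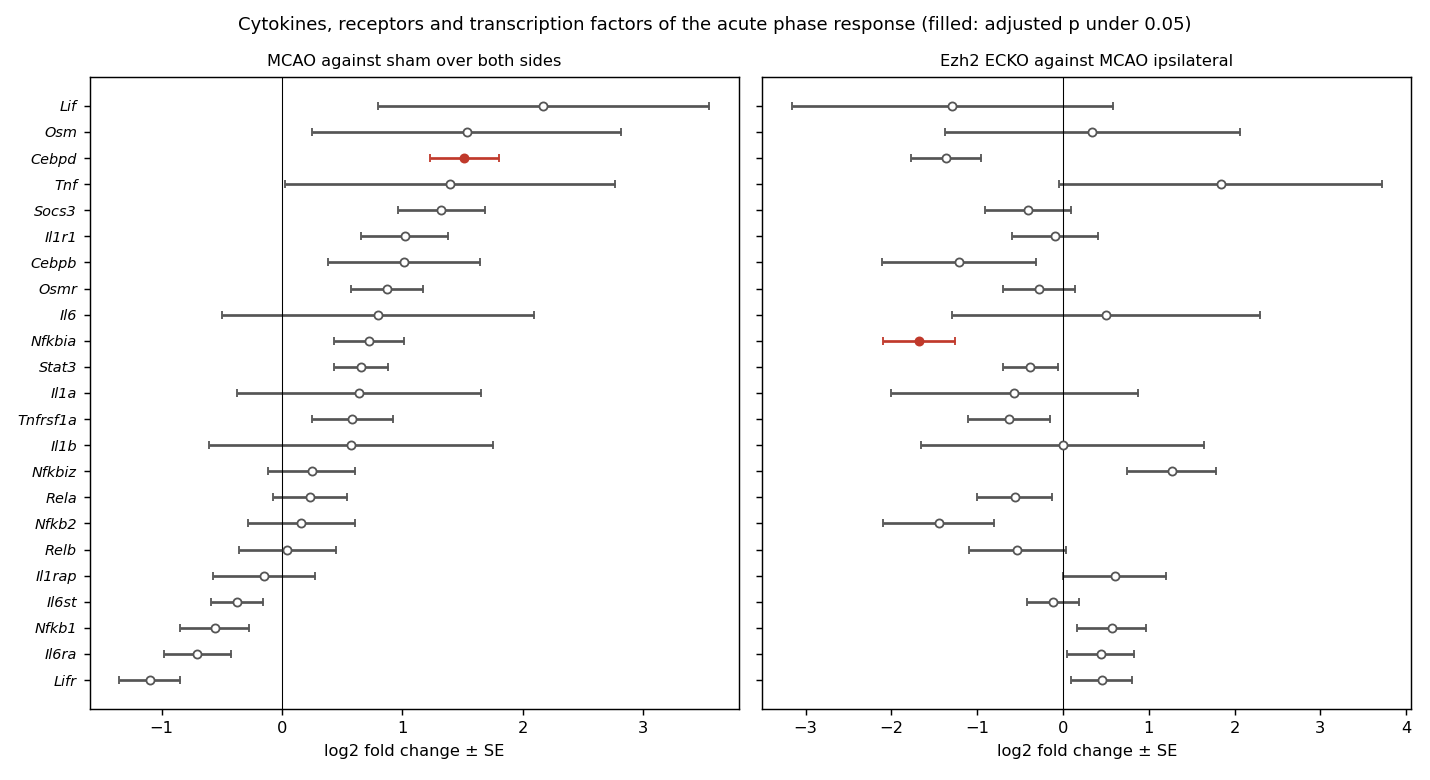
Log2 fold change with its SE for the 23 cytokines, receptors and transcription factors in MCAO against sham over both sides (left) and Ezh2 ECKO against MCAO ipsilateral (right), ordered by the left values, with filled points at an adjusted p under 0.05. Cebpd is the filled point on the left, at 1.52, and Nfkbia the one on the right, at -1.68.

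The classical products of the acute phase, most of them plasma proteins, were largely low in these cells. The list also held the metallothioneins Mt1 and Mt2 and the membrane protein Steap4, which are not plasma proteins. Of the 30 genes in the list, 16 passed the filter and 8 of those were higher after MCAO, with a median of 0.16. EdgeR called 0, with 4 under 0.05 unadjusted, where 1554 of 17094 genes were. Saa3, a serum amyloid A, reached at most 0.511 CPM in any library, the complement component C3 0.597 CPM and haptoglobin (Hp), which did not pass the filter, 1.20 CPM. A2m and Steap4 reached at most 2.24 and 0.568 CPM. The complement component C4b was an exception in size, at 3.99, 8.83 and 33.4 CPM in MCAO ipsilateral libraries and 0.247, 0.0953 and 2.89 CPM in ipsilateral sham, with 3.83 ± 0.88 over both sides (adjusted p = 0.0803). The metallothionein Mt2 was 1.48 ± 0.34 (0.0803), Timp1, a protease inhibitor, 2.07 ± 1.16 (0.631), and ceruloplasmin (Cp), at 78.5 to 382 CPM, -0.29 ± 0.29 (0.886). In the libraries labelled Ezh2 ECKO, Mt2 fell by 2.25 (SE 0.49, adjusted p = 0.0337) against MCAO ipsilateral, the 1 of 16 called where 1.46% of all genes were, and that call was kept in 11 of 18 fits without 1 library (adjusted p up to 0.171).

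In the lipopolysaccharide receptor pathway around Cd14, edgeR called 0 of 16 tested genes after MCAO, with 2 under 0.05 unadjusted and a median of 0.36. Over all genes 1554 of 17094 were under 0.05 unadjusted and the median was 0.06. Ly96, the partner that binds lipopolysaccharide on Tlr4, had the opposite sign to Cd14, -1.22 ± 0.38 (adjusted p = 0.227). In the libraries labelled Ezh2 ECKO it rose by 2.43 ± 0.56 against MCAO ipsilateral (adjusted p = 0.0373), at 285, 106 and 226 CPM against 15.3, 19.9 and 79.5 CPM, the 1 of 16 called where 1.46% of all genes were. This call was kept in 10 of 18 fits without 1 library (adjusted p up to 0.222). Tlr4 ran from 1.62 to 28.6 CPM, with its highest value in MCAO contralateral replicate 1, Tlr2 from 0 to 4.16 CPM and Myd88 from 0.188 to 14.6 CPM.

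The partners of Lrg1 and Lcn2 showed no called change after MCAO. Of 20 tested TGF-beta receptors and effectors edgeR called 0, with 4 under 0.05 unadjusted (1554 of 17094 genes were) and a median of 0.27. Endoglin (Eng), which Lrg1 binds, was 0.36 ± 0.26 (adjusted p = 0.762), the receptor Tgfbr2 -0.65 ± 0.25 (0.372) and the target gene Id1 0.75 ± 0.29 (0.371). In the libraries labelled Ezh2 ECKO, Id1 was -1.53 ± 0.41 against MCAO ipsilateral without overlap (0.0577). The lipocalin receptors were low and variable, Slc22a17 from 0.108 to 21.0 CPM and Lrp2 from 0.0441 to 5.99 CPM, while Mmp9, which lipocalin 2 binds, reached at most 0.763 CPM. Of 5 genes in that list 3 were tested and 0 called, with 0 under 0.05 unadjusted. The related secretoglobin Scgb3a2 and its scavenger receptor Marco reached at most 0.188 and 0.341 CPM, and 0 of that list of 5 passed the filter.

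Markers of other cell types, among them cells that can also make these transcripts, were compared, though not every type is given for all 6 groups. The summed level of 12 microglial markers was 31.4 to 40.3 CPM in ipsilateral sham and 80.3 to 83.0 CPM in ipsilateral MCAO libraries, while contralaterally it was 45.9 to 61.5 and 37.9 to 89.0 CPM. It was 58.8 to 103 CPM in Hdac2 ECKO-labelled libraries and 47.3 to 62.4 CPM in those labelled Ezh2 ECKO. Of the 10 microglial markers tested, 9 were higher after MCAO over both sides, with a median log2 change of 2.18. EdgeR called 0 of them, with 4 under 0.05 unadjusted. Over all genes 1554 of 17094 were under 0.05 unadjusted, a background that also holds for the unadjusted counts further on. That median was 2.87 ipsilaterally and 0.66 contralaterally. The 12 monocyte and macrophage markers summed to 7.12 to 13.5 CPM in ipsilateral sham and 12.0 to 41.2 CPM in ipsilateral MCAO libraries, and the 14 neutrophil markers to 6.72 to 23.0 and 10.7 to 14.7 CPM. Astrocyte markers summed to 62.1 to 79.8 CPM in ipsilateral sham and 56.2 to 83.4 CPM in ipsilateral MCAO libraries, and 0 of 14 reactive astrocyte genes were called after MCAO by edgeR, with 4 under 0.05 unadjusted. The 10 pericyte and smooth muscle markers went the other way, with sums of 104 to 162 CPM in ipsilateral sham and 38.1 to 103 CPM in ipsilateral MCAO libraries, and of 99.7 to 198 and 14.6 to 66.9 CPM contralaterally. They were 20.6 to 69.3 CPM in Hdac2 ECKO-labelled libraries and 26.6 to 168 CPM in those labelled Ezh2 ECKO. Of the 9 tested, 0 were higher after MCAO over both sides, with a median log2 change of -1.19 and 0 called by edgeR (3 under 0.05 unadjusted). Among the markers given so far, Camp was at 0 in every MCAO ipsilateral library and Stfa2l1 in every MCAO contralateral library. Retnlg, C1qa, Aldh1l1 and the pericyte and smooth muscle marker Cnn1 were at 0 in every sham contralateral library, and Ngp in every library labelled Hdac2 ECKO. The 8 choroid plexus and ependymal markers varied between single libraries. They summed to 2.10 to 24.9 CPM in ipsilateral sham and 0.640 to 277 CPM in ipsilateral MCAO libraries, and to 17.8 to 95.2 and 0.428 to 455 CPM contralaterally. The 10 oligodendrocyte lineage markers summed to 19.9 to 41.1 and 32.4 to 61.1 CPM ipsilaterally and to 29.9 to 64.5 and 58.4 to 205 CPM contralaterally, sham first. The part of the transcripts of these cell types in the levels of Cd14 and the other 4 genes was not tested. The small heat shock gene Hspb1, from the reactive astrocyte list but at 80.7 to 2960 CPM here, fell by 3.93 (SE 0.74, adjusted p = 0.0248) in the libraries labelled Ezh2 ECKO against MCAO ipsilateral, a call kept in 14 of 18 fits without 1 library (adjusted p up to 0.15).

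Across the 18 libraries the 5 genes moved together to different degrees. Pearson's r of log2 CPM was highest between Lrg1 and Scgb3a1, at 0.781, and between Lcn2 and Serpina3n, at 0.744, and lowest between Serpina3n and Scgb3a1, at 0.476. These values describe libraries that share groups, and the choice of genes that are high in MCAO sets part of them. The genes most like each one were sought among 11730 tested genes averaging 1 CPM or more. Serpina3n was most like Cebpd, at 0.877, followed by the heat shock genes Hspa8, at 0.830, and Hsp90aa1, at 0.827. Lrg1 was most like the ferritin heavy chain gene Fth1, at 0.892, and Ackr1, a chemokine-binding receptor of venules, at 0.891, and Scgb3a1 was most like Wdr1, at 0.863, and then Ackr1, at 0.836. Lcn2 was most like the predicted gene AC166256.1, at 0.886, and Ppp1r10, at 0.884, and Cd14 was most like Tgif1, at 0.802, and Fmo2, at 0.801.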

How the data were processed

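RNA was sequenced in 18 libraries of sorted mouse cortical endothelial cells, 3 in each of 6 groups. The deposited table is named normalized, but it holds whole-number counts per gene with differing library totals, between 77.3% and 89.4% of counts from 1 to 20 being even, so it was treated as unscaled counts of both mates. Per the submitters' processing notes, FastQC, cutadapt, STAR, featureCounts, DESeq2 and build mm10 were used, with versions and the strand setting not given in the sources used here. Levels are CPM on TMM-scaled totals. Tests were edgeR 4.0.16 quasi-likelihood F-tests (R 4.3.3) in 1 fit of 6 group means over 17094 genes, with Benjamini-Hochberg adjustment over all of them and a threshold of 0.05. The SE is the log2 fold change over the square root of F. DESeq2 1.42.0, voom in limma 3.58.1, RLE scaling, filters, covariates and leaving out libraries were alternatives. The edgeR script was tested on simulated data. The genes, lists and the rule for named genes (fixed names, called list genes, and the 5 highest correlations) were chosen with earlier results of these data known. Of the per-sample columns, 0 lacked a sample. Of 45 same-number pairs of libraries 9 correlated over 0.1. That count mixes pairs within and across treatments and labels, so it cannot show whether the numbers pair the sides of a brain. Between sides, r for replicates 1, 2 and 3 was 0.104, 0.210 and -0.037 in sham. In MCAO it was 0.014, 0.273 and -0.170. Gene positions are on GRCm38, counted from 1.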

Additional observations from a re-analysis of the deposited data

Results flagged for a closer look

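Lcn2 lay above the mean of ipsilateral sham in all 3 libraries labelled Hdac2 ECKO and below it in all 3 labelled Ezh2 ECKO. Ezh2 ECKO replicate 1, at 2.32 CPM, was within the sham range of 1.36 to 3.34 CPM. Those groups thus overlapped, and Ezh2 ECKO against sham was not called (edgeR adjusted p = 0.833). Sham libraries were among those in which the genes had been chosen as low. The share of all genes with deletion groups on opposite sides of their sham mean was not counted. The difference between the groups labelled as deletions was 4.27 on the log2 scale and was tested directly, with an edgeR adjusted p of 0.0964. Every library labelled Hdac2 ECKO was above every one labelled Ezh2 ECKO, as for 6.87% of all genes.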

How the results depend on the processing

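Of 1480 values of the 5 genes under other settings, 1425 kept their direction and their side of the threshold, 30 changed sign, 14 passed and 4 lost the threshold and 7 moved by more than the replicate spread. The count of genes called in Ezh2 ECKO against MCAO ipsilateral, 1, became 3 with DESeq2, 2 with voom weights and 0 with the replicate block (Lcn2 adjusted p = 0.0558), and ran from 0 to 3 when 1 library was left out. In Hdac2 ECKO against Ezh2 ECKO the count of 0 became 1 with DESeq2 and ran from 0 to 1. Against ipsilateral sham, Hdac2 ECKO gave 1 with DESeq2 (246 of 13704 genes called) and 3 with voom weights (266 of 17094). Ezh2 ECKO against ipsilateral sham ran from 0 to 1. The side difference in MCAO against that in sham gave 1 with only its groups in the fit. Over all genes the 250 calls in Ezh2 ECKO against MCAO ipsilateral became 1642 with DESeq2, 368 with RLE scaling, 491 with the stricter filter, 485 with only its groups, 377 with voom weights, 12 with the replicate block, 13 with the background covariate and 5 to 1362 without 1 library. The 26 in MCAO against sham over both sides became 337, 40, 42, 24, 2199, 4, 99 and 0 to 266 in that order, and the 21 between the deletion groups became 659, 26, 32, 14, 4, 9, 54 and 7 to 191, with 38 without a filter and 3 with the globin genes left out. The causes of these shifts were not tested.

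Apart from Scgb3a1 between the deletion groups, changes of sign were among differences smaller than their errors. Between MCAO sides, Serpina3n was -0.031 with DESeq2, -0.034 with RLE scaling and -0.075 with the replicate block, and Lcn2 was 0.065 with voom weights. Leaving out libraries gave ranges of -0.37 to 1.03 for Serpina3n, -0.28 to 0.19 for Lcn2 and -1.23 to 0.59 for Cd14. Between sham sides, voom weights gave 0.99 for Serpina3n and -0.30 for Cd14, and the background covariate 0.85 for Lrg1 and 0.022 for Scgb3a1. The ranges were -0.042 to 0.64 for Cd14, -0.90 to 0.88 for Serpina3n and -2.53 to 0.71 for Lrg1. For the difference of side differences, Serpina3n was -0.0086 with the replicate block and -0.30 with voom weights, Lcn2 was -0.29 with the background covariate, and the ranges were -0.63 to 1.34 for Serpina3n and -1.49 to 0.32 for Cd14. In Hdac2 ECKO against MCAO ipsilateral, Cd14 was 0.0046 without a filter, 0.0087 with the replicate block, 0.19 with the background covariate and -0.53 to 0.26 over libraries left out. There Hdac2 was 0.029 without a filter and -0.25 to 0.021, and Serpina3g 0.094 with the background covariate. Scgb3a1 ran from -0.26 to 2.23 in Hdac2 ECKO against Ezh2 ECKO, and Cd14 from -0.037 to 1.11 in Ezh2 ECKO against sham.

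RLE scaling moved the median of all genes from 0.17 to 0.36 in Ezh2 ECKO against MCAO ipsilateral, from 0.13 to 0.27 in Ezh2 ECKO against sham, from -0.05 to -0.21 between MCAO sides and from 0.17 to 0.30 in MCAO against sham contralaterally, and the call of Lcn2 held. Same-number pairs of libraries correlated between -0.453 and 0.295 (median -0.015), and 4 of 18 libraries matched best with their own number. The block lowered the count of genes called in Ezh2 ECKO against MCAO ipsilateral to 0 and left the other counts for the 5 genes as they were. With 3 libraries a group and levels near the floor, Serpina3n cannot be told from sham in the libraries labelled Ezh2 ECKO.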
